A study of Mus musculus with 6 samples.

Results

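The alpha subunits of heterotrimeric G proteins were examined in messenger RNA libraries of 32D cells, a mouse myeloblast-like line grown with interleukin-3. The genes were Gnaq, Gna11 and Gna15 of the Gq class, Gna12 and Gna13 of the G12/13 class, and Gnai2 and Gnai3 of the Gi class. They were chosen by name, with the values of the S34F against WT comparison already known, and are 7 of the 54532 genes of the deposited count table. All 7 passed the filter on low counts. Their differences between the groups are therefore given as a description, with no p-value, and support nothing beyond the values themselves.

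Both groups were 32D cells kept in medium with 10% FBS and 5 ng/ml mouse IL-3 and transduced with the retroviral vector MSCV-IRES-GFP. One carried human wild-type U2AF1 (WT) and the other human U2AF1 with the S34F substitution of myeloid malignancies (S34F), with 3 libraries each. The endogenous mouse U2af1 gene was present in both groups, and the retroviral promoter drove the added copy. Whether cells were sorted for GFP, and whether replicates came from separate cultures, is not given in the sources used here. Any spread between replicates may therefore be partly technical. If each group was a single culture, the SEs, intervals and adjusted p values below do not measure variation between cultures. A difference between the groups could then not be told apart from a difference between the cultures.

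Heterotrimeric G proteins carry signals from receptors in the membrane to enzymes inside the cell. At rest the alpha subunit holds GDP and a beta-gamma pair; an activated receptor exchanges GDP for GTP, alpha and beta-gamma separate, and both act on effectors until alpha hydrolyses its GTP. Gq subunits activate phospholipase C-beta, G12/13 subunits activate guanine nucleotide exchange factors of RhoA, and Gi subunits inhibit adenylyl cyclase and couple chemokine receptors. Gna15 is largely restricted to blood cells, and Gnai2 is the main Gi subunit of leukocytes.

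The end of the alpha subunit that touches the receptor sets much of its coupling, so the last 30 coding bases before the stop codon are shown for each gene, 5′ to 3′, from GENCODE transcripts of the build mm10. Capitals mark positions at which the genes of 1 class do not all have the same base.
Gnaq, chr19:16383362-16383391, plus strand: CAGcTgAacctgAaGgagTAcaaTctgGtC
Gna11, chr10:81530798-81530827, minus strand: CAGcTgAacctgAaGgagTAcaaCctgGtG
Gna15, chr10:81502882-81502911, minus strand: GCCcGgTacctgGaCgagATcaaCctgCtG
Gna12, chr5:140760552-140760581, minus strand: caGgaGaacctgaaAGaCAtcatgctgcag
Gna13, chr11:109396454-109396483, plus strand: caTgaCaacctgaaGCaGCtcatgctgcag
Gnai2, chr9:107615638-107615667, minus strand: aaGaacaacCtGaaggaCtgtggCctCtTC
Gnai3, chr3:108109425-108109454, minus strand: aaAaacaacTtAaaggaAtgtggGctTtAT
On mm10 Gnaq (ENSMUSG00000024639) on chromosome 19 at 16132831 to 16387463 and Gna13 (ENSMUSG00000020611) on chromosome 11 at 109362831 to 109401369 lie on the plus strand. Gnai2 (ENSMUSG00000032562) on chromosome 9 at 107614125 to 107635367 and Gnai3 (ENSMUSG00000000001) on chromosome 3 at 108107280 to 108146146 lie on the minus strand.

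The Gq genes were not identical to each other at 12 of the 30 positions, the G12/13 genes at 6 and the Gi genes at 8. The Gq class has more genes than the others, so its count cannot be set against theirs. These are counts of bases, not of amino acids, and do not measure differences in coupling. Over the whole coding sequence Gnaq and Gna11 were 80.5% identical in aligned bases, Gnai2 and Gnai3 74.1%, and Gna12 and Gna13 69.3%. Gna15 was the most distant of its class, at 63.5% to Gnaq and 68.7% to Gna11. Identity across classes lay between 57.3% (Gna15 and Gnai3) and 66.4% (Gna11 and Gnai2). No 2 of the 7 genes shared a stretch of 50 bases in their annotated transcripts. Gna12 shared 10.8% of its 50-base stretches with Amz1, which overlaps 456 of its 3416 exon bases (13.3%) on the opposite strand and was counted at no more than 7.38 CPM (counts scaled to library size) in any library. Gna13 had 2.35% of its exon bases under the antisense gene Gm11696, counted at no more than 6.29 CPM. Whether the counting used strand is not given in the sources used here.

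Values of single libraries are given throughout in the order of replicates 1, 2 and 3. Total counts lay between 16509899 and 19129250 per library, and the lowest count of any of the 7 genes in a library was 352, for Gna11. WT replicates 2 and 3 formed an unusually close pair: the SD of their log2 difference over genes was 0.14, against 0.35 to 0.57 for the rest. Results are therefore also given with these libraries summed into 1. Among the markers of the labelled cell type, Ptprc, Spi1, Il3ra and Csf2rb were well counted, Mpo was counted at 2.99 to 15.8 CPM, and Kit, Cd34, Elane and Cebpa stayed under 1 CPM in every library, with Cebpa at 0 in all. Of 12 progenitor markers 1 passed edgeR's test over all genes, Spi1 (adjusted p = 0.0491), close to the threshold of 0.05. No megakaryocyte or macrophage marker did, and 2.18% of all genes tested passed. Groups of libraries did not overlap, in either direction, for 27.1% of all genes tested. Of the progenitor markers, 3 were above all WT libraries in every S34F library. Levels summed over all 12 were 1750 to 2048 CPM in S34F and 1388 to 1634 CPM in WT. Csf2rb and Ptprc, the most counted of the 12, overlapped between the groups. In S34F they stood at 575 to 831 and 446 to 562 CPM, in WT at 570 to 634 and 323 to 527 CPM. Of 4 megakaryocyte markers 3 were above all WT libraries, with sums over all 4 of 749 to 876 and 586 to 615 CPM and Gp1bb at 0 in every library. Most of these sums was Itga2b, at 712 to 830 CPM in S34F and 559 to 606 CPM in WT. Of 5 macrophage markers 1 was above all WT libraries, with sums over all 5 of 259.6 to 349.8 and 229 to 243 CPM and Mrc1 and Marco under 1 CPM throughout. Most of these was Adgre1, at 223 to 282 CPM in S34F and 198 to 230 CPM in WT, whose groups overlapped. All 5 T cell and all 4 B cell markers stayed under 1 CPM. The part of these markers in the values below was not tested, and in bulk RNA a change in the share of cells of a type and a change in RNA per cell cannot be told apart.

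Among these 7 genes Gnai2 was the most abundant mRNA per length and Gna11 the least. Levels between genes are given as TMM-normalised CPM per kb of exon. Gnai2 stood at 175, 159 and 154 (S34F) against 152, 151 and 148 (WT). Gnai3 followed at 79.8 ± 3.82 in S34F and 79.0 ± 0.864 in WT (SD, n = 3 per group), with Gna13 below it at 47.1 ± 6.72 and 52.2 ± 4.72. The Gq genes followed at lower levels, with Gna15 at 23.4 ± 1.25 in S34F and 28.0 ± 1.36 in WT, Gnaq at 10.8 ± 1.69 and 12.6 ± 0.651, and Gna11 at 5.43 ± 0.244 and 5.21 ± 0.0667. Within the Gq class the blood-restricted Gna15 held 58.1% to 61.5% of the summed level in all 6 libraries. Exon length here is the union of all annotated exons, 3779 bases for Gnai2, whose longest transcript has 2215. Per kb of longest transcript Gnai2 stood at 299, 272 and 263 (S34F) against 259, 258 and 252 (WT). Gnai2 stayed the highest of the 7 genes and Gna11 the lowest.

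The order Gnai2, Gnai3, Gna13 held in all 6 libraries, as did Gna15 above Gnaq above Gna11, with no overlap between neighbours. Gna12 was the gene whose place differed between the groups. Its level was 39.5, 32.8 and 47.5 CPM per kb in S34F replicates 1 to 3, above Gna15 in each, and 22.6, 22.9 and 21.8 in WT replicates 1 to 3, below Gna15 in each. Gna12 and Gna13 could not be ordered in S34F replicate 1, at 39.46 and 39.45 CPM per kb of exon. In the other 5 libraries Gna13 was above Gna12. Per kb of longest transcript Gna13 was above Gna12 in all 6, at 41.1 against 39.5 in S34F replicate 1.

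**Figure D1:**
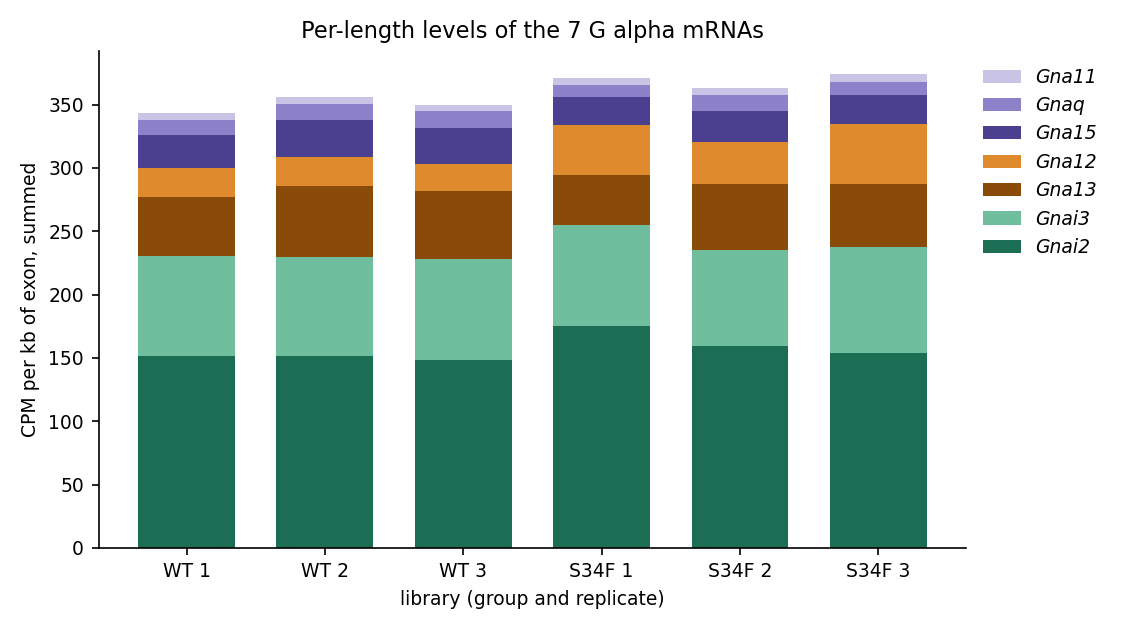
Stacked bars of the per-length level of each G alpha gene (CPM per kb of exon) in the 3 WT and 3 S34F libraries, starting at 0. Gnai2 and Gnai3 together make up between 63.6% and 68.7% of every bar, and the Gna12 segment is taller in the 3 S34F libraries (32.8 to 47.5) than in the 3 WT libraries (21.8 to 22.9).

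Summed by class, Gi genes made up 65.7% ± 2.66 of the 7 genes' per-length level in S34F and 65.6% ± 1.32 in WT (SD, n = 3 per group). Shares here are per kb of the exon union, and the Gi share is higher per kb of longest transcript, through Gnai2. The share of the Gq class was 10.0%, 11.8% and 10.5% (S34F) against 12.7%, 13.3% and 13.3% (WT), so the groups did not overlap. The G12/13 share was 23.5% ± 2.34 in S34F and 21.3% ± 0.988 in WT, and the groups overlapped. Shares of a total move together, so a higher share of 1 gene lowers those of the others.

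Of the 7 genes, 1 was past the threshold of the fit over all genes, Gna12, which was higher in S34F. The threshold was a Benjamini-Hochberg adjusted p under 0.05 in edgeR's quasi-likelihood test over 13444 genes, of which 2.18% were called in either direction and 1.58% as higher. Because that contrast was known when the genes were chosen, nothing is read from the count. The S34F and WT libraries did not overlap for 4 of the 7, higher in S34F for Gna12, Gnai2 and Gna11 and lower for Gna15; over all genes tested 27.1% did not overlap. The median log2 fold change of the 7 was 0.02, beside 0.00 over all genes.

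Gna12, whose product turns on RhoA exchange factors, was counted at 135, 112 and 162 CPM (S34F) against 77.1, 78.2 and 74.4 CPM (WT). Every S34F library lay above every WT library, and the S34F libraries were spread more widely. The group means were 136 ± 25.2 and 76.6 ± 1.94 CPM (SD, n = 3 per group), a 1.78-fold difference with a log2 fold change of 0.83 ± 0.14 (SE) and a 95% interval of 0.51 to 1.15. Gna12 (ENSMUSG00000000149) lies on chromosome 5, 140758408 to 140830431 of mm10, on the minus strand. With 1 library left out the log2 fold change lay between 0.69 and 0.96, the highest without S34F replicate 2. Its place past the threshold did not hold without S34F replicate 1, S34F replicate 3, WT replicate 2 or WT replicate 3. In those fits log2 fold changes were 0.83, 0.69, 0.84 and 0.81. Nor did Gna12 pass with WT replicates 2 and 3 summed (0.83). It also fell short when the trend of each library with GC content was removed (0.67).

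Gna13, its partner in the class, was not higher in S34F. It was counted at 253, 335 and 318 CPM (S34F) against 302, 360 and 344 CPM (WT), and the groups overlapped. In both groups replicate 1 was the lowest. The log2 fold change was -0.15 ± 0.14 (SE), with a 95% interval of -0.46 to 0.16. Gna12 made up 50.01%, 38.6% and 48.9% of the pair's summed level per kb of exon (S34F) against 32.4%, 29.0% and 28.9% (WT). The lowest S34F share, in replicate 2, was above the highest WT share, in replicate 1.

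**Figure D2:**
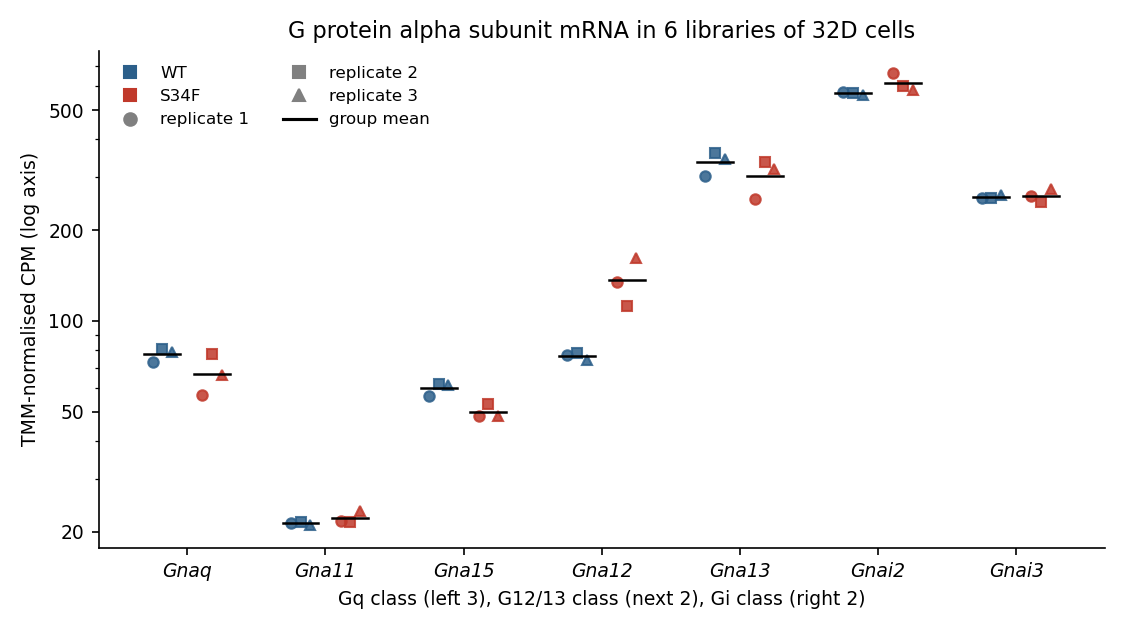
TMM-normalised CPM (log axis) of the 7 G alpha genes in each library, WT in blue and S34F in red, with a symbol for each replicate number and a line at each group mean. The 3 S34F values of Gna12 (112 to 162) lie above its 3 WT values (74.4 to 78.2), while the groups of Gnaq, Gna13 and Gnai3 overlap.

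The 250 bases upstream of the annotated starts are shown for Gna12 and Gna13, the pair that differed, and for Gna15 and Gna11, neighbours on chromosome 10 with unlike levels (RefSeq, GRCm38.p6, 5′ to 3′ along the gene). Each window was searched on both strands, with matches in capitals, for the GC box GGGCGG, for the CCAAT box, for the TATA box as TATAAA, and for GAGGAA, a core found in many PU.1 sites.
Gna12, chr5:140830432-140830681, minus strand: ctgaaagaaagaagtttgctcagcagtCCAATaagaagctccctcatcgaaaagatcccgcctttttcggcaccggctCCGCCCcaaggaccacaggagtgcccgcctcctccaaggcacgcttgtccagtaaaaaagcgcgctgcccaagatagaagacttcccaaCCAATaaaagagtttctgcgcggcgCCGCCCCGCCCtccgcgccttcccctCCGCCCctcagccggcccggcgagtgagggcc
Gna13, chr11:109362544-109362793, plus strand: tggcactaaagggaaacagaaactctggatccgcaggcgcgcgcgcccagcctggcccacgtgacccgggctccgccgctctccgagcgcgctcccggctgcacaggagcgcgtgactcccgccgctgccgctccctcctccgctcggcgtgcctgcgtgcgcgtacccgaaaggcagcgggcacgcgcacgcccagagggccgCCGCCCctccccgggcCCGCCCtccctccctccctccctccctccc
Gna15, chr10:81524226-81524475, minus strand: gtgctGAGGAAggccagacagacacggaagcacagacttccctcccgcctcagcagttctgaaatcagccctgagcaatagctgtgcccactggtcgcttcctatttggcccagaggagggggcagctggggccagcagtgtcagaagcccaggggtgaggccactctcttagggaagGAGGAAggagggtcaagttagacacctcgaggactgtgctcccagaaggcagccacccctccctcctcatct
Gna11, chr10:81545163-81545412, minus strand: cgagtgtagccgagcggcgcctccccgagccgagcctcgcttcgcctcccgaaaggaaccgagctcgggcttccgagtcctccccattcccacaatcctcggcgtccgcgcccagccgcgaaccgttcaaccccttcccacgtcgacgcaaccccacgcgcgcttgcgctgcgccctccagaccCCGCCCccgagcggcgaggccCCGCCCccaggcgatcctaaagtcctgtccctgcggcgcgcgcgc
GGGCGG was found 4 times upstream of Gna12, where 2 of the matches share a base, and 2 times each upstream of Gna13 and Gna11, but not in the Gna15 window. Of the windows not shown, that of Gnaq also held 4 and that of Gnai3 held 0. CCAAT was found 2 times upstream of Gna12 and not in the other windows shown, and GAGGAA 2 times upstream of Gna15 only. TATAAA was in none of these windows. Of 32851 windows of this length, 32.7% held GGGCGG, 33.9% CCAAT, 23.3% GAGGAA and 12.4% TATAAA. The Gna15 window held 4 CG dinucleotides, against 38 for Gna11, 33 for Gna13 and 20 for Gna12, with a median of 6 over all windows. Of the 7 genes 6 matched a window in the table. A match describes the letters only.

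In the Gq class Gna15 was lower in S34F, though not past the threshold. It was counted at 48.5, 53.1 and 48.5 CPM (S34F) against 56.4, 61.6 and 61.1 CPM (WT). All S34F libraries lay below all WT libraries. The log2 fold change was -0.26 ± 0.11 (SE), with a 95% interval of -0.50 to -0.01, and it was -0.43 with the GC trend removed.

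Gnaq, the broadly expressed activator of phospholipase C-beta, was counted at 56.8, 77.7 and 65.99 CPM (S34F) against 73.3, 81.0 and 79.1 CPM (WT). The groups overlapped through S34F replicate 2, and the log2 fold change was -0.22 ± 0.13 (SE), with a 95% interval of -0.52 to 0.08. Gna11, its closest relative by coding sequence, stood at 21.7, 21.6 and 23.4 CPM (S34F) against 21.4, 21.6 and 21.03 CPM (WT). The nearest libraries of the groups were at 21.63 and 21.56 CPM, and the log2 fold change of Gna11 was 0.06 ± 0.13 (SE; 95% interval -0.22 to 0.35), or -0.09 with the GC trend removed. Gna11 and Gna15 lie side by side on the minus strand of chromosome 10, at 81528724 to 81545190 and 81502306 to 81524225, with the noncoding gene Gm47697 between them.

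In the Gi class Gnai2 was counted at 661, 602 and 582 CPM (S34F) against 573, 571 and 559 CPM (WT). The S34F libraries were all higher, by little in replicate 3. The log2 fold change was 0.12 ± 0.11 (SE), with a 95% interval of -0.13 to 0.36, and its sign turned to -0.03 with the GC trend removed. Gnai3 was the steadiest of the 7 genes, at 260.1, 248 and 273 CPM (S34F) against 256, 256 and 261 CPM (WT), with a coefficient of variation of 3.18% over the 6 libraries, beside 34.2% for Gna12. Its log2 fold change was 0.02 ± 0.10 (SE; 95% interval -0.21 to 0.24). It was 0.16 with the GC trend removed and -0.02 with library totals alone, with upper-quartile factors or without S34F replicate 3.

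The transcripts of Gna15, Gna12, Gna11 and Gnai2 had GC contents of 58.7%, 58.2%, 57.2% and 56.7%, and those of Gnaq, Gna13 and Gnai3 46.9%, 46.4% and 41.7%. Removal of the GC trend lowered the log2 fold changes of the first 4 and raised those of the other 3. Gna12 kept the highest value of the 7, at 0.67, with Gnai3 next at 0.16.

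**Figure D3:**
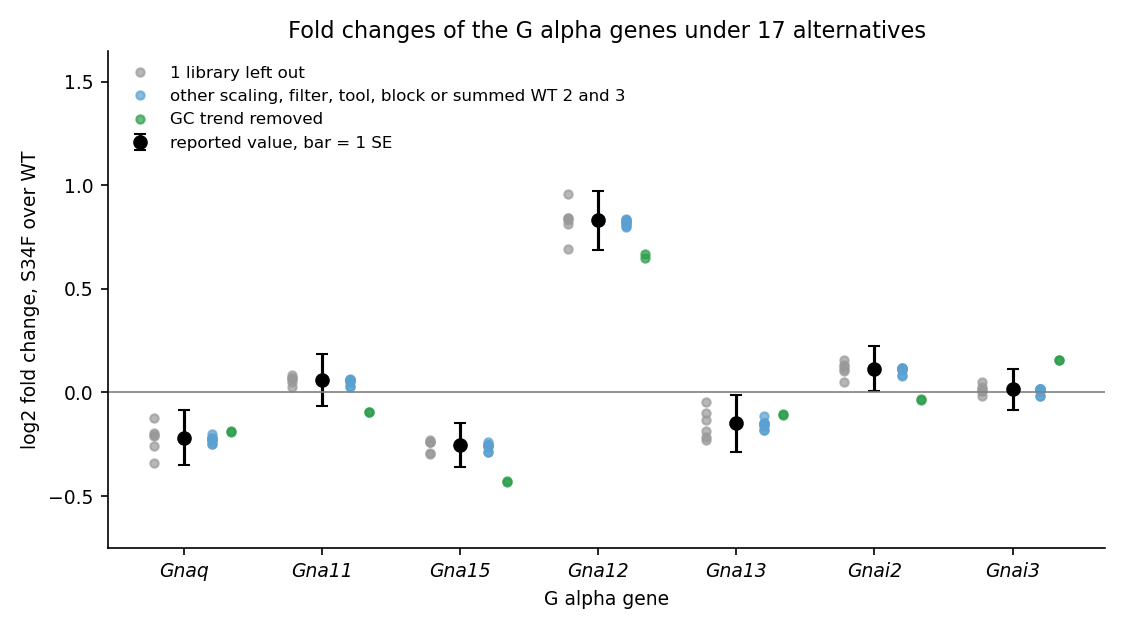
Log2 fold change of S34F over WT for each G alpha gene, with 1 SE as the bar (black), beside the values with 1 library left out (grey), with another scaling, filter, tool, replicate block or summed WT libraries (blue) and with the GC trend removed (green). Gna12 lies between 0.65 and 0.96 throughout, and the values of Gna11, Gnai2 and Gnai3 fall on both sides of 0.

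The other genes of the pathway were read from 12 lists of 158 genes in all, of which 90 could be tested. Of these 1 rose, none fell and 89 did not pass (1.11% called, beside 2.18% over all genes). Without adjustment, p was under 0.05 for 21 (23.3% of the 90, beside 2958 of the 13444 genes in all), with 12 calls by DESeq2 and 1 by limma-voom. Over all genes DESeq2 called 9.04% and limma-voom 2.01%. The groups did not overlap for 25.6% of the 90, and their median log2 fold change was -0.03. Of the other 9 G alpha genes 4 could be tested. Gnas, the Gs subunit that stimulates adenylyl cyclase, was counted at 117, 86.2 and 96.4 CPM (S34F) against 80.6, 51.3 and 47.2 CPM (WT). The groups did not overlap, but the difference did not pass (log2 fold change 0.74 ± 0.21, SE, edgeR adjusted p = 0.0995). Gnai1, Gnaz, Gnat1 and Gnat3 had no count in any library, which allows up to 0.182 CPM.

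None of the 9 beta and gamma genes tested passed in edgeR, and none had an unadjusted p under 0.05 or was called by DESeq2 or limma-voom. Their median log2 fold change was 0.20. Gng5 had the smallest p, with a log2 fold change of 0.25 ± 0.11 (SE, adjusted p = 0.233). RGS proteins speed up GTP hydrolysis by alpha subunits, and those of the R4 type act on Gq and Gi. None of 7 passed; p before adjustment was under 0.05 for 2, with 1 call by DESeq2 and 0 by limma-voom. Rgs2, which acts mainly on Gq, was counted at 34.6, 59.1 and 50.6 CPM (S34F) against 65.1, 102 and 103 CPM (WT), with all S34F libraries lower (log2 fold change -0.91 ± 0.23, SE, edgeR adjusted p = 0.0803). Among 7 chaperones and regulators that are not receptors none passed, with 2 at an unadjusted p under 0.05, 1 call by DESeq2 and 0 by limma-voom. Gpsm3, which binds GDP-bound Gi, was closest, at 48.2, 38.9 and 48.5 CPM (S34F) against 30.3, 30.1 and 28.6 CPM (WT) (log2 fold change 0.61 ± 0.13, SE, adjusted p = 0.0518). Receptor kinases and arrestins gave no call among 7 in edgeR, DESeq2 or limma-voom and no unadjusted p under 0.05, and Grk4 had the smallest p at 1.06 and 1.83 CPM (adjusted p = 0.285).

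Effectors were split by class. Of 11 G12/13 effectors none passed, with 3 at an unadjusted p under 0.05, 2 calls by DESeq2 and 0 by limma-voom, and a median log2 fold change of -0.15. Akap13, a RhoA exchange factor, was counted at 168, 248 and 176 CPM (S34F) against 269, 425 and 404 CPM (WT) (log2 fold change -0.89 ± 0.21, SE, adjusted p = 0.0684). It was lower in every S34F library, while Arhgef1, the exchange factor of leukocytes that G alpha 13 activates, had a log2 fold change of 0.13 ± 0.11 (SE, adjusted p = 0.504). Rhoc, the other DESeq2 call, was higher in every S34F library. It was counted at 6.15, 7.85 and 6.45 CPM (S34F) against 3.89, 2.95 and 3.78 CPM (WT) (log2 fold change 0.94 ± 0.23, SE, edgeR adjusted p = 0.0722). Of 9 Gq effectors none passed, with 3 at an unadjusted p under 0.05, 1 call by DESeq2 and 0 by limma-voom. Prkcd, a protein kinase C that diacylglycerol activates, had the smallest p (log2 fold change 0.58 ± 0.15, SE, adjusted p = 0.0873). Plcb2 and Plcb3, the phospholipases counted at over 100 CPM, had log2 fold changes of 0.19 ± 0.13 and 0.02 ± 0.10 (SE, adjusted p = 0.420 and 0.917). Of 12 cyclic AMP effectors none passed, with 5 at an unadjusted p under 0.05, 3 calls by DESeq2 and 0 by limma-voom. In that list 2 (16.7%) had a positive log2 fold change, beside 50.1% of all genes tested, and the median was -0.23. Prkar2b, a regulatory subunit of protein kinase A, was closest (log2 fold change -0.87 ± 0.20, SE, adjusted p = 0.0635), with all S34F libraries lower. Of 4 beta-gamma effectors none had an unadjusted p under 0.05 or was called by edgeR, DESeq2 or limma-voom, and Pik3cg, the catalytic subunit of PI3K-gamma, had a log2 fold change of -0.29 ± 0.13 (SE, adjusted p = 0.245).

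**Figure D4:**
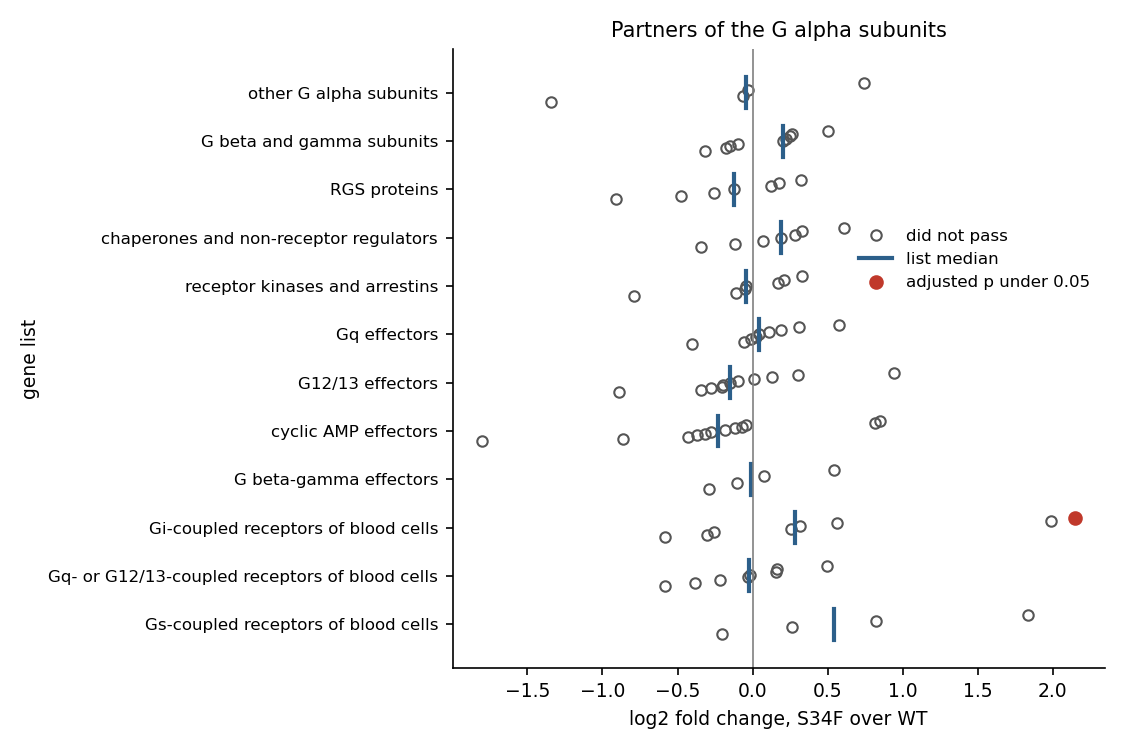
Log2 fold change of S34F over WT for the tested genes of 12 lists of G protein partners, 1 circle per gene, filled red where the adjusted p was under 0.05, with a blue line at each list's median. Ccr1, at 2.15, is the filled circle, and list medians lie between -0.23 and 0.54.

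Among receptors, the gene that rose was Ccr1, a Gi-coupled chemokine receptor of myeloid cells. It was counted at 13.03, 7.70 and 10.3 CPM (S34F) against 3.77, 1.24 and 2 CPM (WT) (log2 fold change 2.15 ± 0.39, SE, edgeR adjusted p = 0.0357), and its rise was already known when the lists were written. It lost its call without S34F replicate 1 (adjusted p = 0.136), S34F replicate 3 (0.106), WT replicate 2 (0.121) or WT replicate 3 (0.156) and with WT replicates 2 and 3 summed (0.119), where log2 fold changes lay between 1.84 and 2.15; over all alternatives its adjusted p lay between 4.16e-06 and 0.156. The other 7 tested Gi-coupled receptors did not pass in edgeR. In this list of 8, p before adjustment was under 0.05 for 2, DESeq2 called 2, Ccr1 and Hcar2, and limma-voom called 1. Hcar2, a receptor for hydroxybutyrate and niacin, was at 40.1, 81.6 and 23.7 CPM (S34F) against 20.6, 8.66 and 7.57 CPM (WT), with a log2 fold change of 1.98 ± 0.51 (SE, edgeR adjusted p = 0.0836). Of 8 receptors coupled to Gq or G12/13 none passed, with 2 at an unadjusted p under 0.05, 1 call by DESeq2 and 0 by limma-voom. Lpar2, a receptor for lysophosphatidic acid, was closest (log2 fold change 0.50 ± 0.14, SE, adjusted p = 0.0923). F2r, the thrombin receptor, was the most abundantly counted of them, at 551, 617 and 832 CPM (S34F) against 593, 863 and 870 CPM (WT), and its groups overlapped. Of 4 Gs-coupled receptors none passed, with 1 at an unadjusted p under 0.05 and no call by DESeq2 or limma-voom. That gene was Adora2a, an adenosine receptor, at 1.25 CPM in S34F and 0.344 CPM in WT (edgeR adjusted p = 0.0872). DESeq2 gave it no adjusted p, so it could not be called there.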

How the data were processed

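The deposited values are raw counts of reads, 1 row for each Ensembl gene and 1 column for each of the 6 libraries. The submitters' processing notes name mm10, HISAT2 and featureCounts. Their versions, like the strand setting and annotation release, were not given in the sources used here. Per the labels' protocols the library kit was directional. Columns were matched to samples by name.

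Counts were fitted in edgeR 4.0.16 (R 4.3.3) with TMM factors, filterByExpr and the robust quasi-likelihood test on genotype alone, two-sided, with Benjamini-Hochberg adjustment over all 13444 genes tested. Each SE is the absolute log2 fold change over the square root of F. Lengths, overlaps and transcript GC content came from GENCODE M21 (mm10), which held 54495 of 54532 gene IDs. Alternatives used DESeq2 1.42.0 and limma 3.58.1 (voom). The fit was tested on simulated counts. Figures used matplotlib 3.10.9.

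The genes and lists were chosen with earlier results of these data known. Named genes were the 7 G alpha genes, the genes of each list that passed or else the one with the smallest p, the gene most alike to each G alpha gene over the libraries, and genes next to or overlapping it. Arhgef1, Plcb2, Plcb3, F2r, Hcar2, Rhoc, Adcy3, Prkar1a, Itga2b and Adgre1 were named after their values were seen. Mkl1 and Mkl2 were matched by synonym. The markers were Mpo, Elane, Prtn3, Ctsg, Ms4a3, Kit, Cd34, Spi1, Cebpa, Il3ra, Csf2rb and Ptprc for progenitors, with lists for 8 other cell types. Neutrophil markers summed to 1.73 to 18.7 CPM in S34F and 3.36 to 6.57 CPM in WT. Mast and basophil, erythroid and fibroblast markers summed to at most 7.90 CPM in any library.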

Additional observations from a re-analysis of the deposited data

How the results depend on the processing

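The number of genes called, 293 in the reported fit, was 763 with no count filter, 1216 with DESeq2, 163 with the GC trend removed and 20 with WT replicates 2 and 3 summed. It lay between 19 and 1177 when 1 library was left out. Removal of S34F replicate 1 or 3 left 20 or 50 calls, and removal of WT replicate 1, 2 or 3 left 1177, 19 or 22. With the replicate number as a block it was 1418, and 1119 with the block and the GC trend removed together. The labels share replicate numbers across groups, and same-numbered libraries deviated from their group means with correlations of 0.332, 0.159 and 0.0719. S34F replicate 1 had -0.259 and -0.243 with WT replicates 2 and 3. WT replicate 1 had -0.206 and -0.101 with S34F replicates 2 and 3. S34F replicate 3 had 0.0801 with WT replicate 2, which lay too close to WT replicate 3 for their numbers to be told apart. Whether replicates were paired cannot be decided from these values, so the block is given as an alternative only.

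Of the 7 G alpha genes 1 was called in the reported fit, 0 with the GC trend removed, 0 with WT replicates 2 and 3 summed and 2 with the block and the GC trend removed, where Gna15 was the second. When 1 library was left out it was between 0 and 1. Gna12 passed in 11 of 17 alternatives and had a positive log2 fold change in all 17. These alternatives refit the same libraries, and the gene was chosen with the contrast known. The counts therefore describe the processing only and are no support for the difference. Of the pathway genes 1 was called in the reported fit, 7 with no filter, 12 with DESeq2, 9 with the replicate block, 7 with the block and the GC trend removed and 0 with WT replicates 2 and 3 summed. The range was 0 to 13 when 1 library was left out, with the 13 in the fit without WT replicate 1. Calls over all genes were 293 of 13444 tested in the reported fit and 763 of 24480 with no filter. DESeq2 called 1216, the replicate block 1418 and the block with the GC trend removed 1119, each of 13444. They were 20 of 13815 with WT replicates 2 and 3 summed and 1177 of 13837 without WT replicate 1. The causes were not tested. Among the list genes with the smallest p that did not pass, Adora2a passed in 1 of 16 alternatives, counting DESeq2, which gave it no adjusted p. Gng5 passed in 1 of 17, Grk4 and Pik3cg in 0 and Lpar2 in 3. Gnas and Prkcd passed in 4, Rgs2 and Gpsm3 in 5, and Akap13 and Prkar2b in 6.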

Other observations

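Over the 6 libraries, among 9149 genes with a mean level of 5 CPM or more (predicted genes left out), the gene most alike to Gna12 in log2 CPM was Pofut1 (Pearson's r 0.998), at 79.7, 72.7 and 85.8 CPM (S34F) against 61.0, 62.0 and 61.6 CPM (WT). The gene most alike to Gna15 was St7 (r 0.998), at 34.6, 42.5 and 34.3 CPM in S34F and 49.3, 58.3 and 56.1 CPM in WT. For Gnaq it was Pias1 (0.994), for Gna11 Spata5 (0.989), for Gna13 Bbs2 (0.995), for Gnai2 Polr2i (0.984) and for Gnai3 Ppig (0.990). With only 6 libraries, which share the genotype split and their depth, such values are descriptions, picked as the highest of many genes.

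Brat1, which lies next to Gna12, was not called, with a log2 fold change of -0.17 ± 0.14 (SE) and an adjusted p = 0.519 in edgeR. Amz1, which overlaps Gna12 on the opposite strand, had 0.09 ± 0.27 (adjusted p = 0.876). S1pr4, a sphingosine-1-phosphate receptor gene next to Gna15, had 0.32 ± 0.30 (adjusted p = 0.577). Aes, on the other side of Gna11, had 0.39 ± 0.12 (adjusted p = 0.115), with every S34F library above every WT library.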
